A study of Mus musculus with 3 samples.

Results

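Basophils and mast cells are rare granulocytes of the tumor microenvironment (TME), and here they were gated from scRNA-seq of mouse glioblastoma (GBM) as cells with UMIs (unique molecular identifiers, counts of captured RNA molecules) of at least 2 of the 5 genes *Mcpt8*, *Cpa3*, *Gata2*, *Fcer1a* and *Ms4a2*. The members were selected on these measured values, so the levels of the 5 genes are given as a description. Cells were kept from 200 detected genes upward and up to a mitochondrial share of 20%, and a barcode that also occurred in another library was dropped unless it held at least 5 times the UMIs of that copy. The gate took 81 of 4269 kept cells, which were 8 of 1264 cells of the vehicle control library, 32 of 1411 cells of niacin replicate 1 and 41 of 1594 cells of niacin replicate 2. Read against genes outside the gate, 74 of the 81 members (91.4%, exact binomial 95% interval 83.0 to 96.5) carried at least 3 of 12 mast cell genes and are called mast cell-like below, while 1 member of the vehicle pool and 1 of niacin replicate 2 carried at least 3 basophil genes and no mast cell gene.

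Mice were C57BL/6 females aged 6 to 8 weeks, and in both groups a brain tumor-initiating cell (BTIC) line that came from NPcis mice, which carry *Nf1* and *Trp53* mutations, and that expressed luciferase and GFP had been placed in the striatum. Niacin (vitamin B3) was given intraperitoneally each day at 100 mg/kg from day 7, controls received saline, and tissue around the injection site was taken at week 4. The vehicle group was 1 library (replicate 2) from 5 mice and the niacin group 2 libraries from 10 mice, each library a pool (the labels give 4 brain tissues for each), so mice within a pool cannot be told apart and the 1 vehicle library leaves no estimate of the spread between vehicle pools. Leukocytes were enriched on a Percoll gradient and live cells were sorted, with no granulocyte marker in the sort.

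Mast cells mature in tissues under KIT ligand, arm surface FceRI receptors with IgE, and store histamine, serotonin, heparin-type proteoglycans, tryptases, chymases and carboxypeptidase A3 in granules that they release on activation. Basophils circulate in blood, share FceRI and histamine with mast cells, and in mice are marked by the proteases *Mcpt8* and *Prss34* in place of *Kit* and the mast cell tryptases. In the brain, mast cells are best known from the meninges and from around vessels.

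Each library held 8301228 to 10359526 UMIs over 2145 to 2532 barcodes. Members had a median of 3265, 3633.5 and 2997 UMIs in the vehicle control, niacin 1 and niacin 2 libraries, with a range of 573 to 14990, against 3276, 5180 and 5339 in the other kept cells. In all, members contributed 46935, 120080 and 137962 UMIs, so 1 UMI in the vehicle members weighs far more than 1 UMI in the niacin members. The libraries shared barcodes (478, 458 and 892 in pairs, 452 in all 3), and 3 members sat on shared barcodes, 2 in the vehicle library and 1 in niacin replicate 1. Doublets were not removed by a caller, and members with genes of other cell types are described below. Levels are CPM, the UMIs of a gene scaled to the summed UMIs of its class of cells in that library, given in the order vehicle control, niacin 1 and niacin 2, and counts come from 3′ ends, so they need no correction for gene length.

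Of the gate genes, *Cpa3*, which encodes carboxypeptidase A3 of mast cell granules, was the most abundant, at 2557, 8569 and 7125 CPM and in 79 of 81 members. Of the FceRI chain genes, *Fcer1a* (the IgE-binding alpha chain) stood at 469, 1033 and 1080 CPM in 65 members and *Ms4a2* (the beta chain) at 362, 766 and 616 CPM in 68 members. *Gata2*, the transcription factor needed by both lineages, stood at 575, 783 and 507 CPM in 62 members. *Mcpt8*, the basophil protease, gave 12 UMIs in 8 members. These 5 genes chose the cells and carry no test. Just inside the gate lay 15 members with exactly 2 of the 5 genes, of which 14 had *Cpa3* and 9 were mast cell-like, and just outside lay 210 kept cells with exactly 1 gene, of which 125 had *Cpa3* and 3 carried at least 3 mast cell genes. Of those 210 cells, the vehicle library held 132, niacin replicate 1 held 42 and niacin replicate 2 held 36.

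The start regions of genes that define the members are shown because *Gata2*, whose product binds GATA letters, is part of the gate, and because *Cma1* and *Il1rl1* lie outside the gate whereas *Cpa3* and *Ms4a2* belong to it. Each stretch runs 5′ to 3′ on the gene's strand from 250 bases before to 50 bases after the start in RefSeq on GRCm38.p6, with AGATAA or AGATAG or TGATAA or TGATAG, on either strand, in capitals. They lie at chr3:20242132-20242431 (minus strand, *Cpa3*), chr19:11623670-11623969 (minus strand, *Ms4a2*), chr14:55944626-55944925 (minus strand, *Cma1*) and chr1:40429320-40429619 (plus strand, *Il1rl1*).
Cpa3: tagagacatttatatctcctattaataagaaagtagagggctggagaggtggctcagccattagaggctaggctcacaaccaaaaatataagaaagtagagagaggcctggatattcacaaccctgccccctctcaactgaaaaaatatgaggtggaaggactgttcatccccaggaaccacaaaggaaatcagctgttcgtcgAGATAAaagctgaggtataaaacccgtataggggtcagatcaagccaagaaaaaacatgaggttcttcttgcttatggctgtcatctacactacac
Ms4a2: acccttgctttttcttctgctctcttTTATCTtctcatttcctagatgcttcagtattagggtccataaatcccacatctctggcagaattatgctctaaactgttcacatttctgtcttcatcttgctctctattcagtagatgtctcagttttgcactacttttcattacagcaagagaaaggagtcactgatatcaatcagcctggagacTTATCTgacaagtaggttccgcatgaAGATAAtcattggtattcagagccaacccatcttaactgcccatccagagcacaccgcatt
Cma1: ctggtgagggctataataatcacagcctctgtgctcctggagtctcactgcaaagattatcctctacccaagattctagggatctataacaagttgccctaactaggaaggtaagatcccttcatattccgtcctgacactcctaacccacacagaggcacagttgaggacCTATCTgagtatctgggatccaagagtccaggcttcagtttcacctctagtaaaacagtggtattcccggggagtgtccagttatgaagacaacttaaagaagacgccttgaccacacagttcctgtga
Il1rl1: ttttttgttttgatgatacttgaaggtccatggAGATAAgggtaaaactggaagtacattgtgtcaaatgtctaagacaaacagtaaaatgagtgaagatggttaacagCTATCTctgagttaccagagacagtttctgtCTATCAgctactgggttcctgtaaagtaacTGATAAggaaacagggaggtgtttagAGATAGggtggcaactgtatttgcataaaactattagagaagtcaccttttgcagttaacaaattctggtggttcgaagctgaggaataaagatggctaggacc
The match lies 46 bases before the start in *Cpa3*, 79 bases before it in *Cma1*, and nearest at 11 bases before it in *Ms4a2*, which holds 3 matches, while *Il1rl1* holds 5. Of 25 genes looked up, 21 had an entry, and 15 of these 21 (71.4%) held at least 1 match, against 8166 of 27025 promoters of the same length (30.2%). *Mcpt8*, *Gata2*, *Kit*, *Mitf*, *Cyp11a1* and *Itga2b* held none in this window. The E-box letters CATGTG or CACATG stood in 3 of the 21 (14.3%) and in 14.1% of all promoters. A match of letters is a description and not a binding site.

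The question left by the gate is which of the 2 lineages its cells belong to, since *Cpa3*, *Gata2* and both FceRI chains are used by each. The mast cell list was high in members of each library. *Mcpt2*, a chymase of mucosal mast cells, reached 6115, 20944 and 13344 CPM against 31.3, 9.70 and 14.9 CPM in the other kept cells. *Tpsb2*, the tryptase beta gene, reached 4986, 12983 and 14178 CPM against 33.7, 7.96 and 7.40 CPM. *Cma1*, the chymase of connective tissue mast cells, reached 3302, 5480 and 7096 CPM against 10.2, 6.22 and 4.78 CPM. *Kit*, the receptor for stem cell factor, stood at 852, 1741 and 1508 CPM and had UMIs in 74 of 81 members. For these genes the lowest member library lay above the highest library of other cells. The vehicle levels rest on few cells: 1 vehicle member held 285 of the 287 *Mcpt2* UMIs, and the highest vehicle cell held 160 of 234 for *Tpsb2* and 109 of 155 for *Cma1*.

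The members were compared with all other kept cells by the quasi-likelihood test of edgeR on sums per library, with library as a block and p adjusted by Benjamini-Hochberg. The test called 332 of 11070 genes higher in members (3.0%) and 779 lower (7.04%) at an adjusted p under 0.05, with the 5 gate genes left out. The contrast is the one that the gate made, so calls for genes that travel with the gate are a description of the gated cells, and nothing is read from the counts. The shares of 3.0% and 7.04% over all genes are the background to each list count below. The counts moved with the libraries: without the vehicle library 564 genes were higher and 1194 lower, without niacin replicate 1 the numbers were 110 and 193, and without niacin replicate 2 they were 102 and 228. Of the 12 mast cell genes, 10 had enough counts and 10 were called higher, with a median log2 fold change of 9.07 when *Cma2*, which had no UMI in other cells, is put at its bound, against -0.37 over all genes tested. *Tpsb2* differed by a log2 fold change of 9.61 (SE 0.67, adjusted p = 2.05e-43), *Mcpt2* by 9.43 (SE 0.67, adjusted p = 7.12e-42) and *Kit* by 7.51 (SE 0.51, adjusted p = 1.93e-46), each in 3 of 3 libraries (p by the edgeR test). *Mitf*, the transcription factor of the mast cell and melanocyte lineages, had the smallest difference of the 10, 2.49 (SE 0.38), at 170, 225 and 174 CPM. *Mrgprb2*, the receptor through which cationic peptides activate connective tissue mast cells, had 19 UMIs in 15 members (63.9, 58.3 and 65.2 CPM), and its relative *Mrgprb1* had 1 UMI.

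**Figure D1:**
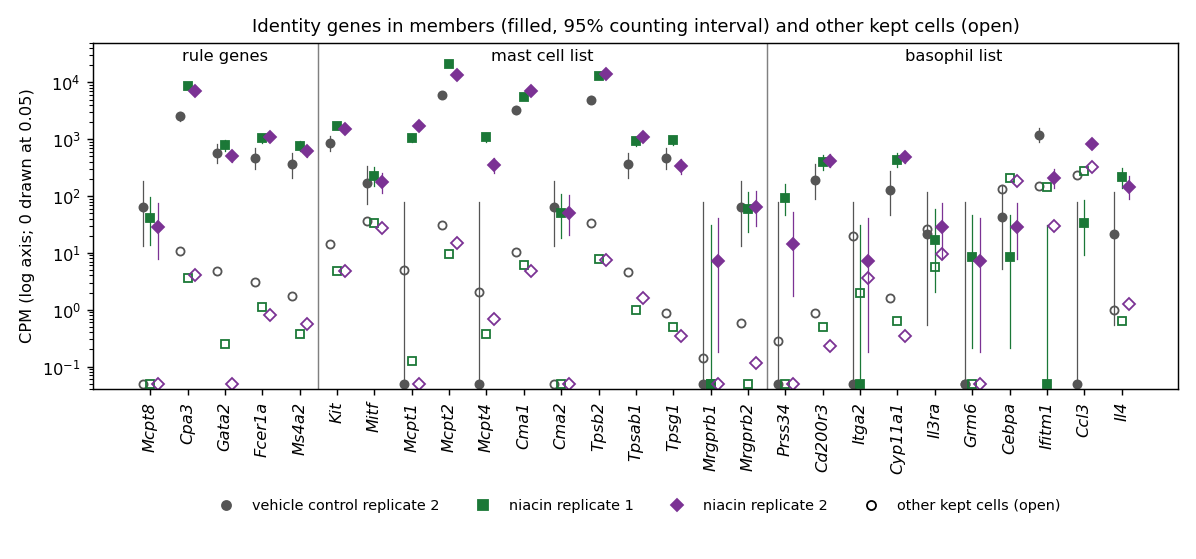
CPM of gate genes, mast cell list genes and basophil list genes (log axis, 0 drawn at 0.05) in members (filled, with exact Poisson 95% intervals) and other kept cells (open) of the 3 libraries. *Mcpt2*, *Tpsb2* and *Cma1* of the members lie between 3302 and 20944 CPM. The gate gene *Mcpt8* and the basophil list genes *Prss34*, *Itga2* and *Grm6* stay under 100 CPM. *Cma2*, *Mrgprb1* and *Mrgprb2* of the mast cell list also stay under 100 CPM. *Cd200r3* and *Cyp11a1* of the basophil list lie between 128 and 493 CPM.

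The basophil list was mixed. Of 10 genes, 8 were tested, 4 were called higher (*Cd200r3*, *Cyp11a1*, *Il4* and *Ifitm1*), 1 was called lower (*Cebpa*) and 3 were not called, with a median log2 fold change of 1.24. *Cd200r3*, an activating receptor that both basophils and mast cells carry, stood at 192, 391 and 420 CPM, and *Cyp11a1*, a steroid-synthesis enzyme, at 128, 433 and 493 CPM. The genes that most directly separate basophils were scarce: *Prss34*, a basophil tryptase, gave 13 UMIs in 4 members, and all 4 were mast cell-like. *Mcpt8* is a gate gene and is given as a description: of the 8 members with it, 7 were mast cell-like. *Itga2* (CD49b) had 1 UMI, *Grm6* 2 and *Il3ra* (the interleukin-3 receptor) 7. Across cells, 26 members carried at least 3 basophil list genes and 24 of these also carried at least 3 mast cell genes, so the lists overlapped within the same cells. More basophil than mast cell genes were seen in 4 members, which were cells 1, 4 and 7 of the vehicle library and cell 33 of niacin replicate 2. In cells 1 and 4, which carry monocyte and MHC class II genes (below), the basophil list genes were *Ifitm1* and, in cell 1 only, *Cebpa*. The eosinophil list gave 7 UMIs, of *Siglecf*, with *Prg2*, *Epx*, *Ear1*, *Ear6*, *Il5ra* and *Ccr3* at 0.

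At least 3 mast cell genes were also found in 28 kept cells outside the gate, 25 of them with no gate gene, and 22 of these 28 were in the vehicle library, more than its 4 mast cell-like members. The share of mast cell-like cells was 4 of 8 members in the vehicle library (exact binomial 95% interval 15.7% to 84.3%), 30 of 32 in niacin replicate 1 (93.8%, 79.2 to 99.2) and 40 of 41 in niacin replicate 2 (97.6%, 87.1 to 99.9). The other 7 members were unlike one another. In the vehicle library, cells 1 and 4 were the largest members (14990 and 13129 UMIs), sat on shared barcodes, and passed the gate on 1 UMI of *Cpa3* and 1 of *Ms4a2* each. They held 86 and 11 UMIs of the MHC class II gene *H2-Aa*, 33 and 139 UMIs of the monocyte gene *Plac8* and 68 and 57 UMIs of *Lyz2*, with no UMI of *Kit*, *Tpsb2* or *Mcpt2*. Cell 8 of that library passed on 1 UMI each of *Cpa3* and *Gata2* and held 70 UMIs of *Cd74* and 46 of *H2-Aa*. Cell 7 (1061 UMIs) passed the gate on 3 UMIs of *Mcpt8* and 3 of *Gata2*. Outside the gate it held 22 UMIs of *Hdc*, 5 of *Ifitm1*, 2 of *Cd200r3* and 1 of *Cyp11a1* and none of the 12 mast cell genes. In niacin replicate 2, cell 33 carried 6 basophil list genes, among them 78 UMIs of *Ccl3* and 28 of *Ifitm1*, with 4 of *Hdc* and no mast cell gene. In niacin replicate 1, cells 6 and 22 had 2 mast cell genes each at 755 and 968 UMIs. *Ifitm1* shows how far such cells reach into the sums: called higher over all members (log2 fold change 1.5), it stood at -4.66 on the log2 scale (adjusted p = 8.86e-05 by the edgeR test) in the mast cell-like members, where it had 1 UMI.

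**Figure D2:**
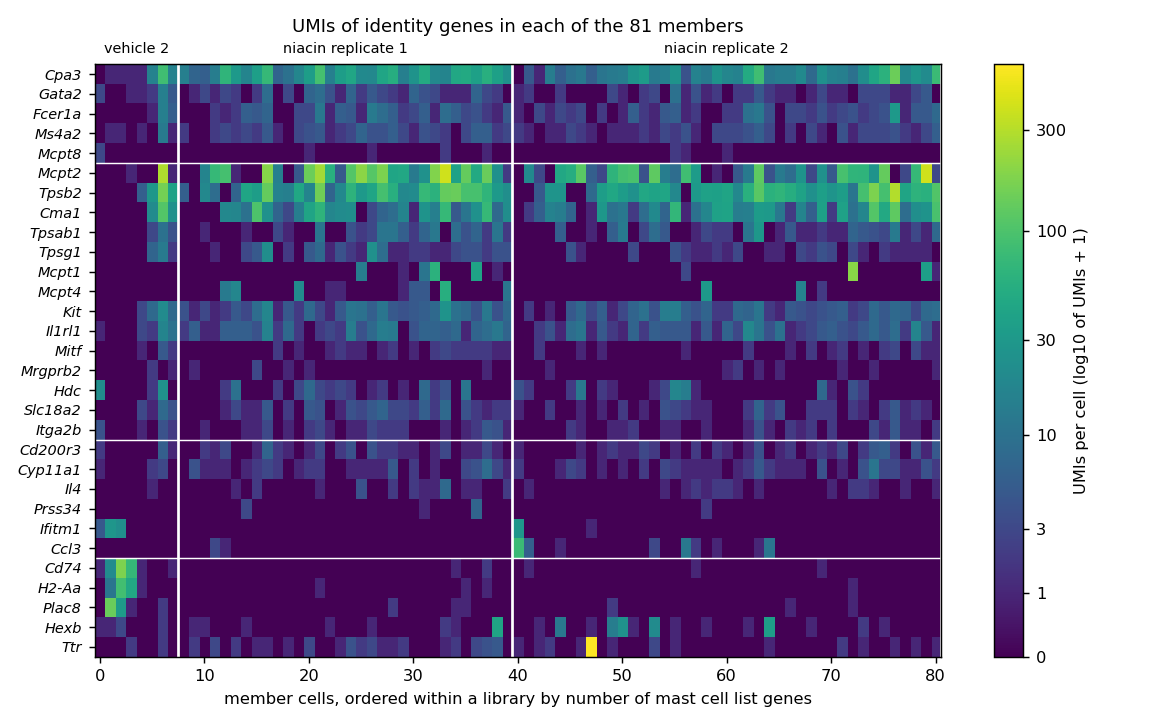
UMIs of 30 genes (rows: gate, mast cell, other granule and receptor, basophil, and other cell type genes) in each of the 81 members (columns, colors on a log10 scale of UMIs + 1), grouped by library and ordered by number of mast cell genes. At the left of the vehicle block, 3 cells carry *Cd74* and *H2-Aa* with almost no mast cell gene, and *Tpsb2* and *Kit* run through most cells of the niacin blocks.

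Granule protein genes were high in members. Of 12 tested granule proteases, inhibitors and proteoglycan genes outside the gate, 8 were called higher, 2 lower and 2 not called, with a median log2 fold change of 3.65. Besides *Tpsb2*, the tryptases *Tpsab1* (362, 916 and 1073 CPM) and *Tpsg1*, a membrane-anchored tryptase (469, 966 and 333 CPM), were higher by 8.41 and 9.81 on the log2 scale. *Serpinb1a*, an inhibitor of serine proteases, was at 405, 1299 and 1145 CPM (log2 fold change 4.71), *Cd63*, a membrane protein of granules that is used to follow degranulation, at 788, 4630 and 3421 CPM (2.59), and *Srgn*, the core protein of the granule proteoglycan, at 1513, 1307 and 1283 CPM (1.29, adjusted p = 0.0156 by the edgeR test). *Cd63* and *Tpsb2* were lowest in the vehicle members, while *Srgn* was highest there. For *Tpsb2* this turned in the mast cell-like members, at 17647, 14363 and 15901 CPM of non-mitochondrial UMIs. Those members were chosen on a list that holds *Tpsb2*. *Gzmb* and *Lamp1* were lower.

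The proteases come from 2 gene clusters. The chymase cluster at chr14:55941451-56085273 holds 7 protein-coding genes in the annotation used (*Cma1*, *Cma2*, *Mcpt1*, *Mcpt9*, *Mcpt2*, *Mcpt4* and *Mcpt8*), and all 7 had at least 1 member UMI, 7006 in all. The tryptase cluster at chr17:25298394-25374442 holds 6 genes, of which *Tpsb2*, *Tpsab1*, *Tpsg1* and *Prss34* had member UMIs, 4221 in all, and *Prss28* and *Prss29* had none. Levels within the chymase cluster spanned 4643 UMIs of *Mcpt2*, 1792 of *Cma1*, 363 of *Mcpt1*, 179 of *Mcpt4*, 16 of *Cma2*, 12 of *Mcpt8* and 1 of *Mcpt9*. *Cma2* had no UMI in the other kept cells and was at least 416-fold higher in members, with a floor of 3 counts over the other cells. The genes are paralogs, so the last 500 bases of their transcripts were compared in windows of 91 bases: *Cma2* and *Mcpt9* shared 28.3% and 33.4% of theirs, *Mcpt4* shared 2.44%, and *Cma1*, *Mcpt1*, *Mcpt2*, *Mcpt8* and the tryptases shared none, so the counts of *Cma2* and *Mcpt9* are uncertain.

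Within the mast cell-like members protease levels varied from cell to cell. The 11 proteases together took a median of 4.57% of a cell's UMIs (range 0.982 to 12.3), with medians of 2.70%, 5.02% and 4.39% in the vehicle control, niacin 1 and niacin 2 libraries. At least 5 UMIs of both *Mcpt2* and *Cma1*, the chymases that textbooks assign to mucosal and connective tissue mast cells, were present in 42 of the 74 cells, *Mcpt2* alone passed that level in 12, *Cma1* alone in 18 and neither in 2. *Mcpt2* ranged from 0 to 386 UMIs per member with a median of 20, against 0 to 124 and a median of 14 for *Cma1*. *Mcpt4*, a connective tissue chymase, was found in 10 members of niacin replicate 1 and 3 of niacin replicate 2, and *Mcpt1*, a mucosal chymase, in 6 and 4, while neither had a UMI in the 8 vehicle members. *Mcpt1* was concentrated, with 196 of its 236 UMIs in niacin replicate 2 in 1 cell. Spearman's rho across cells, on UMIs scaled to each cell's total, between *Mcpt2* and *Cma1* was 0.07 in niacin replicate 1 (30 cells) and -0.33 in niacin replicate 2 (40 cells), and between *Cma1* and *Tpsb2* it was 0.05 and 0.52. Cells of a library share its depth and free RNA, so these values are a description, and they did not take the same size in the 2 niacin libraries.

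Growth factor and alarmin receptors were mixed. Of 18 receptors tested, 5 were called higher, 4 lower and 9 not called (median log2 fold change -0.08), against 3.0% and 7.04% of all genes. *Il1rl1*, which encodes ST2, the receptor for interleukin-33, stood at 703, 1566 and 1471 CPM against 12.9, 6.09 and 9.57 CPM in other cells (log2 fold change 6.95, SE 0.49), and 74 members had a UMI. *Csf2rb*, the shared beta chain of the interleukin-3, interleukin-5 and GM-CSF receptors, was at 682, 333 and 297 CPM (2.04), its mouse duplicate *Csf2rb2* at 42.6, 183 and 130.5 CPM (2.29, higher in 2 of 3 libraries) and *Il2rg*, the common gamma chain, at 107, 283 and 159.5 CPM (1.18, higher in 2 of 3). The myeloid receptors *Csf1r* and *Csf3r*, the interferon-gamma receptor *Ifngr1* and *Il7r* were lower, with log2 fold changes of -3.93 to -2.37. *Csf2rb2* and *Il2rg* lay below the other cells in the vehicle library, the library whose members include the cells with monocyte and MHC class II genes, and the part of those cells was not tested.

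Of 19 genes of FceRI signaling tested, 3 were higher, 2 lower and 14 not called, where 3.0% and 7.04% of all genes were called higher and lower (median log2 fold change -0.26). The adaptors *Lat2* (277, 683 and 580 CPM, log2 fold change 2.37) and *Lat* (107, 258 and 225 CPM, 2.25) and the kinase *Btk* (107, 199.9 and 130.5 CPM, 1.17) were higher, and the low-affinity IgG receptors *Fcgr2b* and *Fcgr3* were lower. *Fcer1g*, the signaling chain that FceRI shares with other Fc receptors, was abundant but not called, at 3089, 1566 and 1660 CPM against 1452, 1257 and 1348 CPM (0.46, SE 0.40, adjusted p = 0.568 by the edgeR test). The proximal kinases *Lyn*, *Syk* and *Fyn* had differences of -0.54, 0.13 and 0.16 and were not called. *Prkcd*, which encodes protein kinase C delta, was at 384, 167 and 43.5 CPM in members against 454, 193 and 194 CPM in other cells (-0.86, SE 0.40, adjusted p = 0.184 by the edgeR test). Between treatments within members, *Prkcd* was lower with niacin (log2 fold change -1.79, adjusted p = 0.0113 by the edgeR test), but not called among mast cell-like members (0.81, SE 1.43, adjusted p = 0.861). *H2-Aa*, an MHC class II gene, stood at 3068, 25.0 and 7.25 CPM in the same sums, and the part of cells with such genes was not tested. Chemoattractant and lipid mediator receptors were scarce, with 11 of 14 tested, 0 called higher and 5 lower, among them the complement receptors *C3ar1* and *C5ar1* and the lipid mediator receptors *Ptafr* and *Cysltr1*. The histamine receptor *Hrh4* had 5 UMIs in members and none in other cells, at least 130-fold higher at the floor of 3 counts over the other cells.

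Enzymes and transporters of amine and lipid mediators were mixed. Of 11 tested, 4 were higher, 2 lower and 5 not called (median log2 fold change 0.08), against 3.0% and 7.04% of all genes called higher and lower. *Hdc*, the enzyme that makes histamine, was at 1044, 533 and 544 CPM against 42.8, 28.7 and 27.3 CPM (log2 fold change 4.27, SE 0.41), in 34 of 81 members. Of its 49 vehicle UMIs, 25 were in cell 2 and 22 in cell 7, and cell 7 held no mast cell gene. *Slc18a2*, the transporter that loads histamine and serotonin into granules, was at 341, 641 and 391 CPM (6.30, SE 0.44), in 53 members, and *Tph1*, which starts serotonin synthesis, at 213, 475 and 544 CPM (9.39, SE 0.53). For leukotrienes, *Alox5* (5-lipoxygenase; 107, 433 and 362 CPM, 3.85) and its activating protein *Alox5ap* (575, 1432 and 1450 CPM, 1.66) were higher, while *Ltc4s*, which joins leukotriene A4 to glutathione, was lower (0, 33.3 and 101 CPM against 124, 331 and 340 CPM, -2.59). For prostaglandins, *Ptgs1* was lower (-2.26), *Hpgds*, the mast cell prostaglandin D2 synthase that microglia also express, was at 341, 458 and 362 CPM and not called (0.11), and *Ptgs2* had 1 UMI. After each cell was thinned to 1000 UMIs, a UMI of *Hdc* was present in 2 of 7 vehicle members, 12 of 29 in niacin replicate 1 and 7 of 38 in niacin replicate 2 (28.6%, 41.4% and 18.4%), with 1, 3 and 3 shallower members left out, against 3.62%, 1.73% and 1.59% of the other kept cells. Without thinning the numbers were 3 of 8, 16 of 32 and 15 of 41.

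Of the cytokines, *Il4* was carried by 28 members with 47 UMIs (21.3, 217 and 145 CPM, log2 fold change 7.0, SE 0.59) and *Il6* by 17 with 27 UMIs (234, 74.9 and 50.7 CPM, 2.74, SE 0.49), and 7 of 9 tested genes were not called (median 1.08). The shares over all genes were 3.0% higher and 7.04% lower. *Il13* had 8 UMIs, too few for the test, and *Il5*, *Il9*, *Il10*, *Csf2* and *Areg* had none in 304977 member UMIs, which allows up to 9.84 CPM at 3 counts. *Tnf* (21.3, 117 and 79.7 CPM), *Vegfa* and *Tgfb1* did not pass the test. Among 10 chemokines, *Ccl2* (42.6, 550 and 1167 CPM, 1.69) and *Ccl7* (0, 341 and 79.7 CPM, 3.95), ligands that recruit monocytes, were higher in 2 of 3 libraries, *Ccl5* and *Ccl12* were lower, *Cxcl2* had no UMI (at least 9.39-fold lower), and 5 were not called. *Ccl2* was spread over 37 members, but *Ccl7* came from 3. *Ccl3* rested on niacin replicate 2, where cell 33 held 78 UMIs (0, 33.3 and 834 CPM).

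Among 16 transcription factors tested, *Tal1* (85.2, 199.9 and 145 CPM, log2 fold change 3.35), a partner of GATA factors, *Mitf* and *Runx3* (320, 341 and 261 CPM, 2.23) were higher, *Cebpa*, *Irf8* and *Id2* were lower, and 10 were not called (median -0.31). Over all genes tested, 3.0% were called higher and 7.04% lower. *Gata1* had 6 UMIs. *Cebpa*, which favors the basophil side of the branch with mast cells, stood at 42.6, 8.33 and 29.0 CPM against 131, 209 and 184 CPM. *Irf8*, a monocyte and dendritic cell factor, was at 469 CPM in the vehicle members against 16.7 and 14.5 CPM in the niacin members. The vehicle members include the cells with monocyte and MHC class II genes, and the part of those cells was not tested. Of the niacin receptor and NAD synthesis genes, 12 of 13 were not called, near the 9959 of 11070 not called over all genes tested. *Hcar2*, the niacin receptor, had 2 UMIs in members, both in the vehicle library, where the part of the cells with monocyte and MHC class II genes was not tested. *Nampt*, the rate-limiting enzyme of NAD salvage, was higher (298, 133 and 196 CPM, 1.5, SE 0.39).

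**Figure D3:**
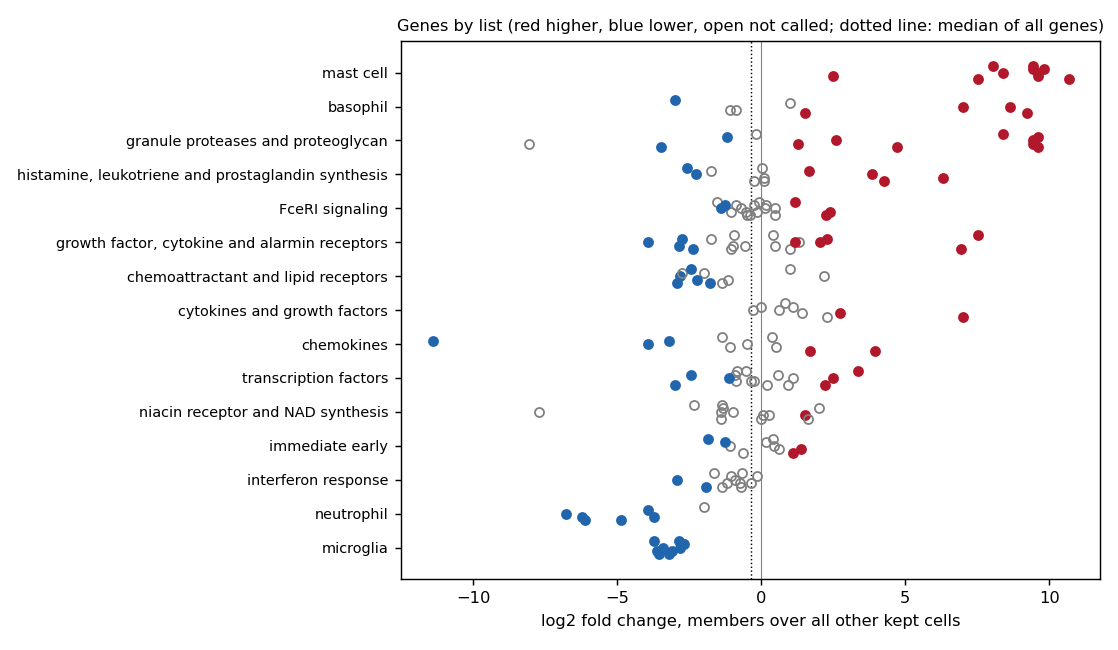
Log2 fold change of members over all other kept cells for each tested gene of 15 lists (red called higher, blue called lower, open not called, dotted line the median of all genes at -0.37). Mast cell genes lie to the right, with 10 of 10 called higher, neutrophil and microglia genes to the left, and the positions of genes with no UMI in 1 class depend on the prior count of the fit.

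By size alone, 15 genes outside the gate led the members (adjusted p under 0.05, higher in 3 of 3 libraries, mean of at least 50 CPM), among them *Tpsg1*, *Tpsb2*, *Cma1*, *Cma2* and *Mcpt2* of the mast cell list and *Cd200r3* and *Cyp11a1* of the basophil list. The other leading genes with a known role were *Tph1*, *Rprm*, a p53-induced inhibitor of the cell cycle (21.3, 258 and 239 CPM, log2 fold change 9.07), and *Gp1ba*, a platelet adhesion receptor (19 UMIs). *Tmem233* (42.6, 117 and 130.5 CPM) and *A230098N10Rik* (21 UMIs) have no role stated here. *Speer4e* (42.6, 192 and 203 CPM), *Speer4d* (23 UMIs, none in other cells, at least 598-fold higher) and *Gm21083* (17 UMIs) belong to a family of near-identical copies, so their counts are uncertain. *Itga2b*, the platelet integrin that early mast cell precursors also carry, had 85 UMIs in 45 members (234, 316 and 261 CPM, log2 fold change 7.22), while the platelet genes *Pf4*, *Ppbp*, *Gp9* and *Gp1bb* had none. The 5 leading genes on the low side had no UMI in any member: *Lcn2* (at least 60.9-fold lower), *Trbc2* (16.5), *Slc1a3* (11.7), *Col27a1* (11.4) and *Mmp8* (8.90), each as a lower bound at 3 counts over the members.

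Genes of other cell types were also present in members. In the vehicle members the summed monocyte and macrophage list (9694 CPM against 6442 CPM) and dendritic cell list (12400 CPM against 7659 CPM) lay above the other kept cells of that library, whereas in the niacin members neither list passed 109 CPM. The 10 microglia genes were 10 of 10 lower, but their summed level was not 0, at 1662, 2207 and 3791 CPM against 12158, 22987 and 23043 CPM in other cells, and *P2ry12*, *Tmem119*, *Siglech* and *Sparc* were at 0 in the vehicle members. T cell genes were lower in 6 of 7, with *Cd3e*, *Trac*, *Trbc2*, *Cd4* and *Cd8a* at 0, and neutrophil genes in 6 of 7, with *S100a8* at 63.9, 150 and 94.2 CPM against 2243, 9145 and 9754 CPM. In 10 members at least 3 genes of another cell type had 2 or more UMIs, 3 of the vehicle pool, 1 of niacin replicate 1 and 6 of niacin replicate 2. The largest such signal was *Ttr*, a choroid plexus gene, with 611 UMIs in 1 member of niacin replicate 2.

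Stray UMIs, such as free RNA gives, were counted in cells that should lack mast cell genes. In T cells (at least 3 of 7 T cell genes), a UMI of *Tpsb2* was present in 33 of 167 cells of the vehicle library (19.8%), 4 of 129 of niacin replicate 1 and 4 of 143 of niacin replicate 2, at median depths of 5845, 5395 and 6469 UMIs. Among members it was present in 4 of 8, 30 of 32 and 36 of 41 cells, at shallower median depths. In all other kept cells the shares were 15.6%, 4.42% and 3.22% for *Tpsb2*, 15.3%, 5.15% and 3.09% for *Mcpt2* and 5.81%, 2.03% and 1.55% for *Cpa3*, so the vehicle library had the highest share of other cells with such a UMI for each gene although it had the fewest members. The other kept cells include the 28 with at least 3 mast cell genes, so not each such UMI need be stray. *Gata2* had a UMI in 2.23% of the other vehicle cells and in 0.145% and 0% of the others, and *Ms4a2* in 0.955%, 0.218% and 0.322%. Vehicle cells 1, 4 and 8 each held 2 UMIs of gate genes, and whether these were free RNA was not tested.

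The number of members carries no test between treatments, since 1 library against 2 allows an exact permutation p no smaller than 0.333 (one-sided). Members were 0.633% of kept cells in the vehicle library (exact binomial 95% interval 0.274 to 1.24, counting error only), 2.27% in niacin replicate 1 (1.56 to 3.19) and 2.57% in niacin replicate 2 (1.85 to 3.47). The niacin shares overlapped each other and not the vehicle share. This difference moved with the limit on mitochondrial UMIs. Without the limit, 51 of 1900 barcodes (2.68%), 59 of 1594 (3.70%) and 51 of 1746 (2.92%) carried at least 2 gate genes, and the 3 intervals (2.00 to 3.51, 2.83 to 4.75 and 2.18 to 3.82) overlapped. Gate-positive barcodes that were also mast cell-like were 1.79% (1.24 to 2.49), 3.26% (2.45 to 4.26) and 2.86% (2.13 to 3.76) without the limit. With the limit they were 0.316%, 2.13% and 2.51%, so the vehicle share of these was the lowest both times. In the vehicle library, 43 of the 51 gate-positive barcodes (84.3%) lay above the limit, against 32.1% of its other barcodes. In niacin replicate 1 it was 27 of 59 (45.8%) against 10.2%, and in niacin replicate 2 it was 10 of 51 (19.6%) against 8.38%. The vehicle count rose from 8 at a limit of 20% to 18 at 30%, 30 at 40% and 51 at 60%, whereas niacin replicate 2 went from 41 to 44, 48 and 51.

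**Figure D4:**
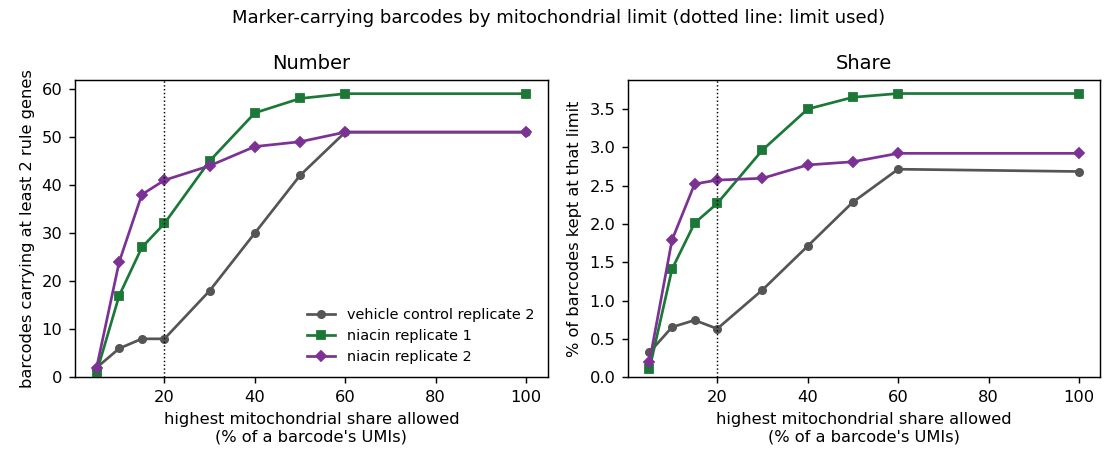
Number (left) and share (right) of barcodes with at least 2 gate genes by the highest mitochondrial share allowed (percent of a barcode's UMIs), for the 3 libraries, with the limit used as a dotted line. The vehicle line runs from 2 barcodes at a limit of 5% to 8 at the limit of 20%. At 60% it reaches 51 barcodes, as does niacin replicate 2.

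The barcodes above the limit were shallow but mast cell-like in most cases. Their median depth was 965, 1043 and 1124 UMIs in the vehicle control, niacin 1 and niacin 2 libraries, and at least 3 mast cell genes were found in 30 of 43, 22 of 27 and 10 of 10. They held 4065, 8363 and 7776 CPM of *Tpsb2* and 1578, 2134 and 2984 CPM of *Kit*. Median *Cpa3* per barcode was 2, 10 and 6.5 UMIs. Members under the limit also had more mitochondrial UMIs than the other kept cells, with medians of 6.93%, 9.01% and 8.76% against 5.16%, 2.62% and 3.34%. Cell quality, the library and the treatment cannot be told apart here, since the vehicle group is 1 library.

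Expression was then compared between niacin and vehicle within members, with 1 residual degree of freedom from the niacin libraries and the vehicle library assumed to vary as they do. Over all members, the edgeR test called 152 of 2514 genes higher with niacin (6.05%) and 216 lower (8.59%). The largest on the low side were *Cxcl9* (1832, 0 and 0 CPM), *Cd74* (5646, 25.0 and 21.7 CPM), *H2-Ab1*, *H2-Aa* and *Plac8* (3729, 33.3 and 29.0 CPM). These are genes of antigen presentation and monocytes, and of the vehicle *Cd74* UMIs 171, 21 and 70 were in cells 1, 4 and 8. The interferon list moved the same way, at 4879, 208 and 283 CPM in members, and in the other kept cells at 4332, 819 and 982 CPM. Its 7 genes tested over all members had a median log2 fold change of -4.33. Among mast cell-like members only 2 of its 12 genes had enough counts, with a median of 0.05. The largest on the high side were *Mcpt1* and *Mcpt4* (both at 0 in the vehicle members), the hemoglobin genes *Hbb-bs* (0, 591 and 1203 CPM) and *Hba-a1*, which are red cell transcripts, and *Ccl3*. In the other kept cells *Mcpt1* and *Mcpt4* ran the other way, with a UMI of *Mcpt1* in 34 of 1256 vehicle cells, 1 of 1379 and 0 of 1553 niacin cells, and with 14, 3 and 6 UMIs of *Mcpt4*. *Hbb-bs* was also lower in the other kept cells of the vehicle library, at 2332 CPM against 36519 and 32096 CPM.

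Within the 74 mast cell-like members, 10 of 2152 genes were called higher with niacin (0.465%) and 2 lower (0.0929%), and DESeq2 called 0, with 40 genes at an unadjusted p under 0.05. Here the vehicle sum holds 4 cells and 14633 UMIs. *Mcpt1* and *Mcpt4* belong to the mast cell list that chose these cells, so their values here are a description. Called higher were *Mcpt1*, *Mcpt4*, *Hbb-bs*, the immediate early genes *Jun* and *Junb*, *Cst3*, *Pnrc1*, *Rpl9*, *Ubb* and *Gm20186*, and lower were the nuclear RNA *Neat1* and *Gm42418*, which overlaps ribosomal RNA. With the mitochondrial limit lifted as well, the vehicle sum grew to 34 barcodes and 47744 UMIs, and the test called 0 of 2585 genes higher (0.00%) and 0 lower (0.00%), with 501 genes (19.4%) at an unadjusted p under 0.05, while DESeq2 called 44 higher and 21 lower. *Mcpt1* was not at 0 in the vehicle barcodes of that selection: in CPM of non-mitochondrial UMIs, *Mcpt1* was at 962, 1017 and 1876 and *Mcpt4* at 120, 1223 and 392.

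The level of the mast cell list depended on which cells were taken. Mast cell-like cells were chosen on at least 3 genes of this same list, which holds *Kit* and *Cma1*. The choice thus shapes the list sum and the differences of its genes in those selections, and these values are a description. In CPM of non-mitochondrial UMIs, the summed mast cell list was 17382, 49856 and 43583 over all members, 57919, 50431 and 44737 over mast cell-like members, and 36229, 48663 and 44503 over mast cell-like barcodes with no limit. The vehicle library was thus lowest, highest and lowest, and the niacin libraries lay between 43583 and 50431 throughout. *Kit* was higher with niacin over all members (log2 fold change 1.04, adjusted p = 0.0281 by the edgeR test) and was not called, with the opposite sign, over mast cell-like members (-0.46, adjusted p = 0.542). *Cma1* changed in the same manner (1.05, adjusted p = 0.00164, then -0.44, adjusted p = 0.390 by the edgeR test), and with no limit it was 0.54 (adjusted p = 0.429). Histamine genes were highest in the vehicle library in the selection with no limit, where *Hdc* stood at 1383, 572 and 569 and *Slc18a2* at 2165, 723 and 515 CPM, and neither was called (log2 fold changes -1.03 and -1.56, adjusted p = 0.193 and 0.153 by the edgeR test). The immediate early list was lowest in the vehicle library in each selection, at 6736, 10332 and 12146 CPM of non-mitochondrial UMIs against 13844 to 17488 in the niacin libraries. Among the other kept cells it was also lowest there, at 7341 CPM against 10493 and 9822 CPM.

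**Figure D5:**
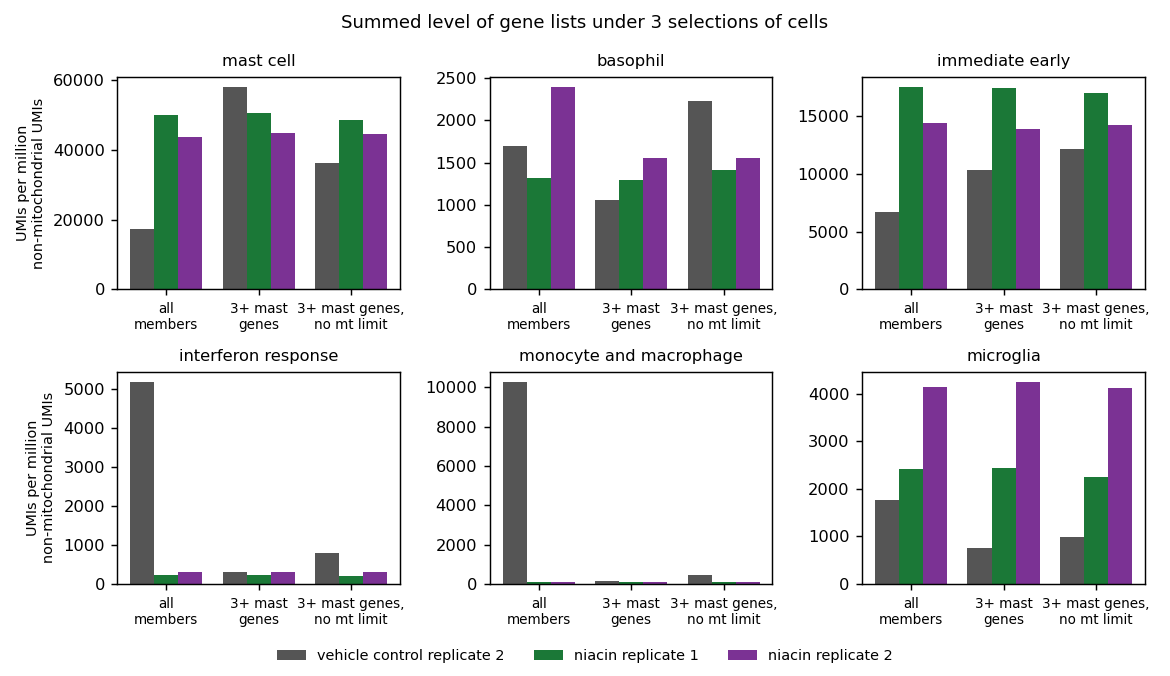
Summed level of 6 gene lists in CPM of non-mitochondrial UMIs in the 3 libraries (bars, no replicate within a bar) for all members, members with at least 3 mast cell genes, and barcodes with at least 3 mast cell genes and no mitochondrial limit. The vehicle bar of the monocyte and macrophage list drops from 10285 over all members to 151 over mast cell-like members.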

How the data were processed

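Live brain cells of 3 pooled libraries were profiled by droplet scRNA-seq. The deposited values are raw UMI counts per gene and barcode, which the authors made with Cell Ranger 3.1 (STAR) on mm10, per the file headers and the study's methods. Those files hold all called barcodes, before any quality threshold. Counts were summed per library over members and over the other kept cells. The fits used edgeR 4.0.16 in R 4.3.3 (TMM, low counts filtered, quasi-likelihood test across all genes, Benjamini-Hochberg over all genes tested), with library as the replicate block for members against other cells and none for niacin against vehicle. DESeq2 1.42.0 was an alternative. Tables were made in Python 3.11.15 with numpy 2.4.6, scipy 1.17.1 and pandas 2.3.3, and figures with matplotlib 3.10.9. Gene positions came from GENCODE M21 on GRCm38 (31011 of 31053 gene IDs matched) and promoters from RefSeq. The code was tested on simulated data, where the fit of members against other cells recovered 82 of 200 changes of 4-fold. A gene not called may thus still differ. Named genes were those of the lists, the 15 largest higher and 5 largest lower genes of members against other cells (adjusted p under 0.05, 3 of 3 libraries, mean of at least 50 CPM), and the 5 largest each way between treatments (at least 20 UMIs, both niacin libraries on 1 side). Genes named as called in the mast cell-like fit, and *Hbb-bs* in other cells, were chosen after their values were seen. The members and lists were chosen with earlier results of these data known. Intervals cover counting error only, and doublets were not removed. The p-values of members against other cells rest on how that difference varied between the 3 libraries. Those of niacin against vehicle rest on the spread of the 2 niacin libraries alone. A listed gene is not reported here.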

Additional observations from a re-analysis of the deposited data

How the results depend on the processing

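Member shares without the mitochondrial limit were 2.68% (vehicle) and 3.70% (niacin 1). With a limit of 10% they were 0.654% (vehicle, 0.240 to 1.42), 1.41% (niacin 1, 0.824 to 2.25) and 1.79% (niacin 2, 1.15 to 2.65). These intervals overlapped. With at least 3 gate genes, 98.5% of members were mast cell-like. For members against other cells, the genes higher numbered 216 with the limit of 10%, 526 with no limit and 180 with no replicate block, and those lower numbered 320 with no replicate block and 291 by DESeq2. Leaving out 1 library gave 102 to 564 higher and 193 to 1194 lower.

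For niacin against vehicle, genes higher and lower numbered 69 and 23 with each shared barcode dropped, 34 and 6 with at least 3 gate genes, 32 and 11 without members carrying genes of other cells, 10 and 2 in mast cell-like members, and 0 and 0 in these with no mitochondrial limit. DESeq2 gave 19 and 74 over all members, 0 and 0 in mast cell-like members, and 44 and 21 in these with no limit. The sign turned for *Ifitm1* against other cells in mast cell-like members (-4.66). Between treatments it turned for *Kit* (-0.10 with shared barcodes dropped, -0.53 with at least 3 gate genes, -0.32 without members carrying other genes, -0.46 in mast cell-like members, -0.31 in these with no limit, and -0.53 and -0.44 by DESeq2 in these selections), for *Cma1* (-0.10, -0.48, -0.33 and -0.44 in the first 4 selections, -0.50 by DESeq2 in mast cell-like members) and for *Tpsab1* (-0.0031 without members carrying other genes, and -0.0694 and -0.19 by edgeR and DESeq2 in mast cell-like barcodes with no limit). *Kit*, *Cma1* and *Tpsab1* belong to the list that defines mast cell-like cells, so their values in those selections are a description. The cause was not tested. Members against neutrophils was not run, since the vehicle library had 8 members and 10 cells were required. Depth limits the vehicle members most, where 3 counts stand for 63.9 CPM.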
